A study of Mus musculus with 2 samples.

Results

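Ctla2a/Ly6c2-high cells of 2 cultures of mouse CD8+ T cells, both stimulated with the peptide named L6F, were compared with cells of the same cultures that held neither transcript. The cells were wild-type splenic CD8+ T cells kept for 30 h at 80 pmol or 20 pmol L6F. The other cultures of the pool received 20, 2 or 0.2 pmol of the peptide named M9C or were rested. Each culture carried its own hashtag, a DNA-barcoded antibody that marks the culture a cell came from, and all were loaded into 1 lane of a droplet platform, so each condition is a single culture. How many mice were used, their age and sex, and the T cell receptor of the cells are not stated in the labels. The sort was for live cells and did not select for a T cell subset.

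A barcode was taken as an L6F cell where 80% or more of at least 20 hashtag counts came from 1 of the L6F hashtags, where mitochondrial genes held at most 10% of unique molecular identifiers (UMIs, counted molecules), and where gene UMIs numbered 4000 to 9000. These steps took 5468 barcodes with an L6F top hashtag to 3043 cells, of 13439 barcodes in all. Of those, 487 held 4 or more UMIs of Ctla2a plus Ly6c2 and are called high here (240 at 80 pmol and 247 at 20 pmol). A further 1307 held none and are called negative (617 and 690), and the remaining cells held 1 to 3. The hashtags that assign the cells to the L6F cultures are shown because every grouping below rests on them.
80 pmol L6F: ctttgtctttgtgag
20 pmol L6F: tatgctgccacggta

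Ctla2a encodes a small protein related to the propeptide of cathepsin L-like proteases, which it inhibits, and Ly6c2 encodes a GPI-anchored surface protein that memory CD8+ T cells and some naive ones carry. In resting spleens of laboratory mice, part of the CD8+ compartment has a memory-like state without known antigen encounter, marked by the IL-2 receptor beta chain, CXCR3, the T-box factor Eomes and fast production of effector proteins. Naive cells carry CCR7, TCF-1 and LEF-1, and acquire granzymes and receptors for inflammatory chemokines after stimulation. After 30 h of stimulation, cells of both origins can express activation genes.

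The genes that define the split lie in families with near copies. Ctla2a (chr13:60934155-60936625, minus strand of GRCm38) has the neighbour Ctla2b (chr13:60895350-60897447), and Ly6c2 (chr15:75108158-75111970) has Ly6c1 (chr15:75044018-75048830), each on the minus strand. Reads of a 3' library would fall in the last 300 bases of the longest coding transcript. These were 58.5% identical between the Ctla2 genes and 98.0% between the Ly6c genes. The whole Ctla2 transcripts were 79.1% identical and differ in length (1373 and 1094 bases). Reads of either pair, and of Ly6c above all, may thus be split between copies, and how far was not tested. RefSeq promoter windows (GRCm38.p6, from 250 bases before to 50 after each start) are shown because Ctla2b, which the rule did not use, moved with Ctla2a while Ly6c1 stayed near 0. Capitals mark, on either strand, matches to TGANTCA (AP-1), AGGTGT (T-box), TGTGGT (Runx), TTCNNNGAA (STAT5) and the core promoter element TATAAA.
Ctla2a, chr13:60936576-60936875, minus strand: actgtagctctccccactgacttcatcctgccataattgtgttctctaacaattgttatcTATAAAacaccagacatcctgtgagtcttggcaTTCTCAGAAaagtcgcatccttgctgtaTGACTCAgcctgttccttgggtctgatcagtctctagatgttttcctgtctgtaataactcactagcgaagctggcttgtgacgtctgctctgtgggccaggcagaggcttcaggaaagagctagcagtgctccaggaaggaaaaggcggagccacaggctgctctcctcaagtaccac
Ctla2b, chr13:60897398-60897697, minus strand: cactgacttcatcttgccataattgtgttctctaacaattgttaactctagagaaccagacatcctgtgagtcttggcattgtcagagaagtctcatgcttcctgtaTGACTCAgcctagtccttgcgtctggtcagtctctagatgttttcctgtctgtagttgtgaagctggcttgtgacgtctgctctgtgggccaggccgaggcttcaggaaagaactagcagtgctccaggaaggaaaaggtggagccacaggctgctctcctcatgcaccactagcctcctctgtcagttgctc
Ly6c2, chr15:75111922-75112221, minus strand: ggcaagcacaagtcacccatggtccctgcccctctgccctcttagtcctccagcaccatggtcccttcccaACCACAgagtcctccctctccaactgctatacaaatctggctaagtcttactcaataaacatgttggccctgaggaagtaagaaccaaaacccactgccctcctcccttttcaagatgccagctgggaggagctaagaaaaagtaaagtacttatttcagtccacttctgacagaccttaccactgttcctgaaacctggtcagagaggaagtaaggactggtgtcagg
Ly6c1, chr15:75048788-75049087, minus strand: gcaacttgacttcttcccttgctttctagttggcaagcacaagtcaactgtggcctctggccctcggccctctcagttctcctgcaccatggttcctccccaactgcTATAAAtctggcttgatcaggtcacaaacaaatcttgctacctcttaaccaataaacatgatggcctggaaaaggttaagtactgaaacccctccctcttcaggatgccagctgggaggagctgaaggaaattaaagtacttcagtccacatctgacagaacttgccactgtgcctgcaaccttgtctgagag

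The Ctla2 windows were 91.7% identical over 278 aligned bases and shared the AP-1 match, which lies 129 bases before the Ctla2a start and 143 before the Ctla2b start. Of 32851 promoter windows of this length, 7.81% held an AP-1 match, 13.7% a T-box match, 16.8% a Runx match, 8.30% a STAT5 match and 13.6% the letters TATAAA. The Ly6c windows were 78.2% identical. Ly6c2 held 1 Runx match that Ly6c1 lacked, and Ly6c1 held a TATAAA match that Ly6c2 lacked. Ctla2a held a STAT5 match and a TATAAA match that Ctla2b lacked. The TATAAA matches lie 190 bases before the Ctla2a start and 143 before the Ly6c1 start. These matches describe the letters of the windows only.

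The 2 transcripts that set the groups were spread over a continuous range. Among L6F cells, 1307 held 0 UMIs, 602 held 1, 402 held 2 and 245 held 3, just outside the limit, while 131 held 4, just inside it. A further 230 held 5 to 7, 91 held 8 to 15 and 34 held 16 or more, which leaves out 1 cell that expressed monocyte genes. No gap separated the high cells from the rest. Of the 487 high cells, 267 (54.8%) held both transcripts, 201 (41.3%) only Ctla2a and 19 (3.90%) only Ly6c2, so Ctla2a set most of the membership.

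After every cell was thinned to 4000 UMIs, the share of L6F cells with a Ly6c2 UMI was 13.6% in the 1827 cells without Ctla2a, 20.03% in cells with 1 Ctla2a UMI and 24.3% in cells with 2. It was 25.3% in cells with 3 to 4 and 54.4% (exact binomial 95% interval 41.9 to 66.5) in the 68 cells with 5 or more. The 2 transcripts were thus found together more often in cells with most Ctla2a, in each L6F culture (51.4% at 80 pmol and 58.1% at 20 pmol in the top class).

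High cells held slightly more RNA than negative cells. Median UMIs were 6718 in high and 6153 in negative cells at 80 pmol, and 7013 and 6221 at 20 pmol, with medians of 2376 and 2233 genes at 80 pmol and 2423 and 2263 at 20 pmol. Summed UMIs were 1601830 and 1687422 in the high groups and 3830063 and 4334911 in the negative groups. A level of 20 CPM (UMIs of a gene scaled to the same total in every group) is therefore about 32 UMIs in the high cells at 80 pmol and 34 at 20 pmol. A raw limit of 4 UMIs is passed more easily by deeper cells, and the thinned values in the closing section bear on that.

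High cells were about as common at either L6F dose and rarer under M9C. Their share was 16.7% at 80 pmol L6F (95% interval 14.8 to 18.7, 240 of 1436 cells) and 15.4% at 20 pmol L6F (13.6 to 17.2, 247 of 1607). Under M9C it was 5.47% at 0.2 pmol (4.13 to 7.07, 54 of 988), 1.47% at 2 pmol (0.845 to 2.38, 16 of 1085) and 1.19% at 20 pmol (0.651 to 1.98, 14 of 1179). The intervals cover counting error only, and with 1 culture per condition there is no spread between cultures to set beside these differences. Only 8 rested cells reached 4000 UMIs, of which 5 were high, too few to give a share.

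The share of cells with any UMI of either gene was 57.0% and 57.1% at 80 and 20 pmol L6F, 35.1% at 0.2 pmol M9C, 18.5% at 2 pmol and 16.7% at 20 pmol. Median depth was 6320.5 and 6461 UMIs in the L6F cultures and 6760 in the 20 pmol M9C culture. All cultures shared the lane and hence its free RNA, whose part in these shares was not tested. The cells with 16 or more UMIs followed another order. They were 1.18% (0.691 to 1.89, 17 cells) and 1.06% (0.618 to 1.69, 17 cells) of the L6F cultures, 1.01% (0.487 to 1.86, 10 cells) at 0.2 pmol M9C, 0.184% at 2 pmol and 0.0848% at 20 pmol. At 0.2 pmol M9C their share overlapped that of the L6F cultures, whereas the share of all high cells there was lower.

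**Figure D1:**
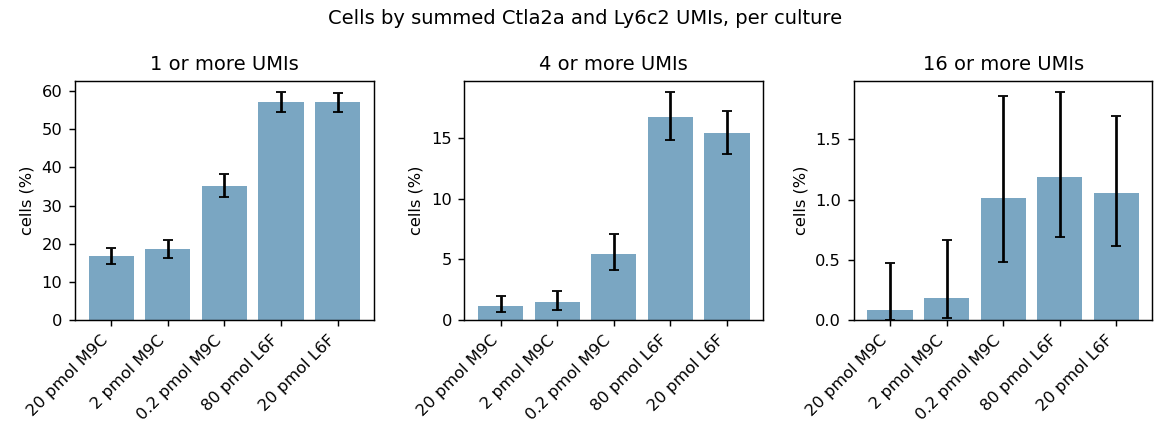
Share of cells (%, each panel on its own axis from 0) with 1 or more, 4 or more and 16 or more Ctla2a plus Ly6c2 UMIs in each stimulated culture, with exact binomial 95% intervals that cover counting error. The shares of 4 or more were 16.7% and 15.4% in the L6F cultures and 5.47% or less under M9C, while those of 16 or more were near 1% in both L6F cultures and at 0.2 pmol M9C.

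Since the groups were chosen from these same counts, what follows describes them and is not a test. A gene was counted as higher or lower where its CPM ratio passed 1.5-fold in the same direction in each of the 2 L6F cultures. Genes were measured where they reached 20 CPM in either group, and Ctla2a and Ly6c2 were left out. Of 5314 genes, 19 were higher in high cells (0.358%) and 9 were lower (0.169%). At 2-fold, 6 were higher (0.113%) and 2 lower (0.0376%). In the same direction at any size in both cultures, 26.6% of genes were higher and 30.7% lower. The counts of each gene list below are to be read beside these shares of all genes. The higher genes included Ctla2b, S100a6, Ms4a4c, St3gal6, Ccl5, Klrk1, Ifi27, Cxcr3, Slamf7, Lyst, Vps37b, Ulbp1, Lgals3, Gzmb, Id2, Crtam, Ppp3ca and Eomes. The 9 were Lgals7, Cd200, Timp2, Qrsl1, Ctla4, Mtor, Nrn1, Aff3 and Washc4. Over both cultures, Ctla2b, Ms4a4c, St3gal6, Ccl5, Klrk1, Ulbp1, Id2 and Ppp3ca reached 20 CPM in the high cells only. Lgals7, Timp2, Qrsl1, Ctla4, Mtor, Aff3 and Washc4 reached it in the negative cells only. For such genes the level filter favours the direction found, so their calls and their part in list counts are description only.

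**Figure D2:**
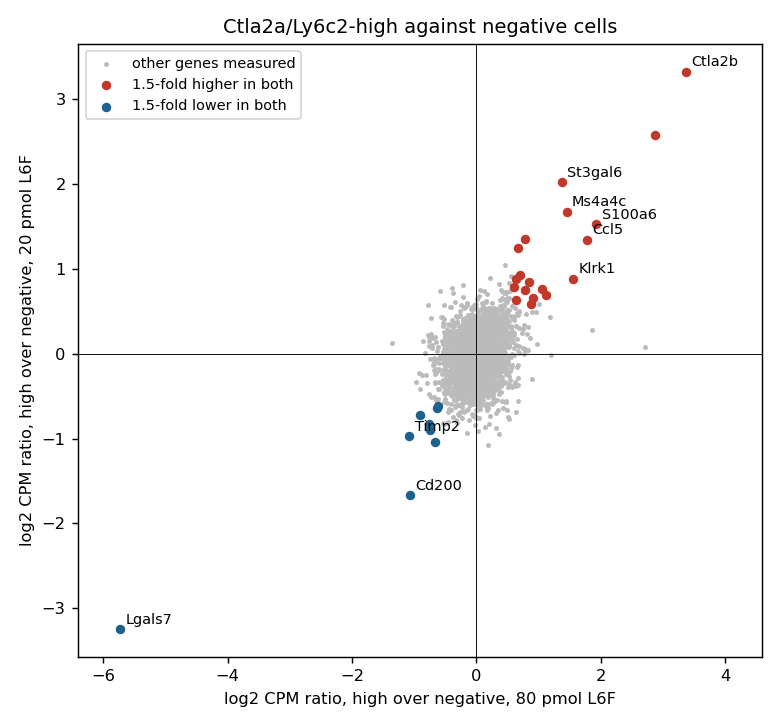
Each point is 1 of the 5314 genes, with the log2 ratio of CPM in high over negative cells at 80 pmol L6F on the horizontal axis and at 20 pmol L6F on the vertical axis. The 19 genes 1.5-fold higher in both cultures lie at the upper right, led by Ctla2b, and the 9 lower at the lower left, with Lgals7 (-5.73 and -3.24) apart from all others.

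The near copy of Ctla2a was the gene with the largest ratio among those higher. Ctla2b stood at 48.7 CPM in high and 4.70 in negative cells at 80 pmol, and at 20.7 and 2.08 at 20 pmol, a ratio over both cultures of 10.4 (95% counting interval 6.78 to 16.5). Ly6c1 held 1.25 and 1.57 CPM at 80 pmol and 1.19 and 2.77 at 20 pmol, with only 4 high cells holding a UMI. Whether reads of Ctla2a or Ly6c2 were counted for the other copy, or the reverse, was not tested, so both values are uncertain. Ly6a, which encodes the Sca-1 antigen of the same Ly6 family, held 785 and 572 CPM at 80 pmol and 705 and 556 at 20 pmol, a ratio of 1.32 (1.26 to 1.39) that did not reach 1.5-fold. Of 11 Ly6 and Ctla2 relatives 3 were measured. Those 3 were higher in both cultures, where 26.6% of all genes were, and 1 passed 1.5-fold, where 0.358% of all genes did.

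A receptor for inflammatory chemokines was among the higher genes. Cxcr3, the receptor for interferon-induced chemokines, held 58.7 and 33.9 CPM at 80 pmol and 71.7 and 28.1 at 20 pmol, a ratio of 2.12 (1.76 to 2.55). Both high groups lay above both negative groups. Thinned to equal depth, 21.6% of high and 10.5% of negative cells held a Cxcr3 UMI. Ccr7, the lymph node homing receptor, had a log2 ratio of -0.03. Of 11 trafficking receptors and integrins measured, 2 passed 1.5-fold higher, Cxcr3 among them, where 0.358% of all genes did. In both cultures 5 of the 11 were higher and 4 lower, where 26.6% and 30.7% of all genes were. The median log2 ratio of the list was 0.07. The integrin gene Itga4 was below 20 CPM in each group, with 13.1 CPM in high and 14.4 in negative cells at 80 pmol and 12.4 and 13.4 at 20 pmol.

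Effector products were higher as well. Ccl5, a chemokine that memory CD8+ T cells hold ready as mRNA, stood at 43.1 CPM in high and 12.5 in negative cells at 80 pmol and at 41.5 and 16.4 at 20 pmol, a ratio of 2.90 (2.25 to 3.74). Gzmb, the granule protease granzyme B, held 253 and 136 CPM at 80 pmol and 332 and 211 at 20 pmol, a ratio of 1.67 (1.54 to 1.82). The negative group at 20 pmol stood nearest to the high groups, yet below both. Nkg7, a granule membrane protein gene, had 443 and 219 CPM at 80 pmol and 373 and 249 at 20 pmol. Its ratio was 1.73 (1.61 to 1.86), but the 20 pmol culture alone fell just under 1.5-fold. Of 11 cytotoxic granule genes measured 9 were higher in both cultures, where 26.6% of all genes were. Gzmb was the 1 that passed. The median log2 ratio of that list was 0.27, against -0.01 over all 5314 genes.

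Cytokine genes showed no such order. Of 11 cytokine and chemokine genes measured, Ccl5 alone passed. Ifng held 92.4 and 14.1 CPM at 80 pmol but 41.5 and 39.4 at 20 pmol, and 1 high cell held 111 of its UMIs. Without the cell with the most UMIs in each group its log2 ratio fell from 1.27 to 0.44. Il2 was near 2 to 3 CPM in all 4 groups. Ccl4 held 135 and 84.9 CPM at 80 pmol and 184 and 134 at 20 pmol, and at equal depth 18.9% of high and 18.8% of negative cells held a Ccl4 UMI, so its higher sum lay in UMIs per positive cell, 61 of them in 1 high cell.

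Among receptors of NK cell type, Klrk1 (the stress ligand receptor NKG2D) held 33.1 and 11.2 CPM at 80 pmol and 25.5 and 13.8 at 20 pmol, a ratio of 2.31 (1.73 to 3.09). Crtam, an adhesion receptor of cytotoxic lymphocytes, held 46.2 and 29.8 CPM at 80 pmol and 73.5 and 47.3 at 20 pmol, a ratio of 1.54 (1.28 to 1.85). Of 27 genes of this list 5 were measured, 4 of those were higher in both cultures and none lower, and these 2 passed. Klrk1 reached 20 CPM in the high cells only. Of all genes, 26.6% were higher and 30.7% lower in both cultures, and 0.358% passed higher. Slamf7, a SLAM family receptor, held 40.0 and 19.3 CPM at 80 pmol and 55.7 and 32.8 at 20 pmol, and was the only activation or costimulatory receptor of 20 measured that passed. For Crtam and Slamf7 the order within each culture was clear while the high group at 80 pmol and the negative group at 20 pmol lay close together.

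Of transcription factors, Eomes, a T-box factor of memory and effector CD8+ T cells, held 68.0 CPM in high and 37.1 in negative cells at 80 pmol and 63.4 and 42.2 at 20 pmol, a ratio of 1.65 (1.38 to 1.97). Id2, an inhibitor of E proteins, held 30.6 and 19.6 CPM at 80 pmol and 37.3 and 20.3 at 20 pmol, a ratio of 1.71 (1.33 to 2.18). Eomes and Id2 were the 2 of 14 factors measured that passed, where 0.358% of all genes passed higher. Tbx21 (T-bet) held 21.2 and 24.8 CPM at 80 pmol and 20.7 and 27.0 at 20 pmol, and its interval of the log2 ratio, -0.72 to 0.09, spanned 0. The median of the 14 was -0.03, near that of all genes.

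S100a6, a calcium-binding protein gene, and Ms4a4c, which encodes a membrane protein with several spans, were higher under all 26 other settings tried, as was Cd200 lower. S100a6 held 73.7 CPM in high and 19.3 in negative cells at 80 pmol and 61.6 and 21.5 at 20 pmol, a ratio of 3.30 (2.69 to 4.06). Ms4a4c held 44.9 and 16.4 CPM at 80 pmol and 55.1 and 17.3 at 20 pmol, a ratio of 2.97 (2.35 to 3.75). For both genes the high groups lay well above both negative groups. Lgals3, which encodes galectin-3, held 81.2 and 51.2 CPM at 80 pmol and 81.2 and 34.1 at 20 pmol. Of 23 galectin, vimentin, S100 and annexin genes measured, 19 were higher in both cultures and 2 lower. S100a6 and Lgals3 were the 2 that passed 1.5-fold. Lgals7, a galectin gene that this list leaves out, was among the genes that passed lower. The median log2 ratio of the list was 0.28. Of all genes, 26.6% were higher and 30.7% lower in both cultures, and 0.358% passed higher. Vim, the intermediate filament vimentin, held 584 and 421 CPM at 80 pmol and 462 and 278 at 20 pmol, and the negative group at 80 pmol lay close to the high group at 20 pmol.

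**Figure D3:**
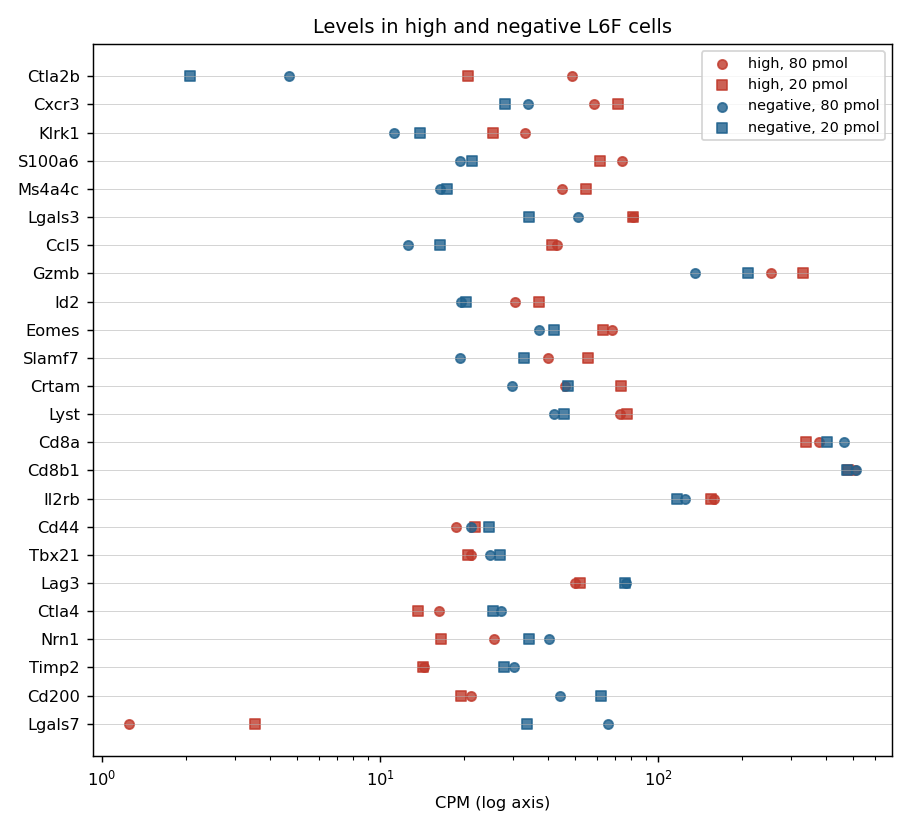
CPM (log axis) of 24 genes in the 4 groups, red for high and blue for negative cells, circles for 80 pmol and squares for 20 pmol L6F. Within each culture red points lie to the right of blue for genes from Ctla2b to Lyst, overlap for Cd8b1 and Cd44, and lie to the left for Lag3 down to Lgals7.

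Cd200 and Ctla4 were among the lower genes. Cd200, a surface ligand for an inhibitory receptor, held 21.2 CPM in high and 44.4 in negative cells at 80 pmol and 19.6 and 62.3 at 20 pmol, 2.65-fold lower in high cells (2.04 to 3.47). At equal depth 5.34% of high and 17.4% of negative cells held a Cd200 UMI. Ctla4, a receptor that competes with CD28 for its ligands, held 16.2 and 27.2 CPM at 80 pmol and 13.6 and 25.4 at 20 pmol. Lag3, a receptor for MHC class II, held 49.9 and 76.5 CPM at 80 pmol and 52.2 and 75.7 at 20 pmol, 1.49-fold lower (1.25 to 1.78) and not past the limit in both cultures. Of 8 inhibitory receptors measured, Cd200 and Ctla4 passed 1.5-fold lower and none passed higher, and 5 were lower and 2 higher in both cultures. Of all genes, 0.169% passed lower, and 30.7% were lower and 26.6% higher in both cultures. Cd160, counted in that list, held 51.8 and 34.99 CPM at 80 pmol and 56.3 and 38.1 at 20 pmol. The median log2 ratio of the list was -0.34.

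Other lower genes had no common list. Lgals7, which encodes galectin-7, held 1.25 and 66.1 CPM at 80 pmol and 3.56 and 33.7 at 20 pmol. Its UMIs came from 6 high and 89 negative cells, up to 26 in a single negative cell, so it marks a small number of cells. Among L6F cells above 9000 UMIs it was not lower (21.8 CPM in high and 16.1 in negative cells). Timp2, an inhibitor of matrix metalloproteases, held 14.4 and 30.3 CPM at 80 pmol and 14.2 and 27.9 at 20 pmol. Nrn1, which encodes neuritin, held 25.6 and 40.5 CPM at 80 pmol and 16.6 and 34.1 at 20 pmol. Mtor, the kinase that links nutrients to growth, held 12.5 and 23.5 CPM at 80 pmol and 15.4 and 25.4 at 20 pmol. The 3 others were Aff3 (1.55-fold lower), Qrsl1 (1.75-fold) and Washc4 (1.53-fold), each under 30 CPM in all groups.

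The label under which these cells were chosen sets a memory-like against a naive-derived state, and lists of both kinds are set beside it here. Of 37 memory-like CD8+ T cell genes, a list drawn up with earlier results of these data known, 21 were measured. Of these, 7 passed 1.5-fold higher (Cxcr3, Eomes, Ccl5, Klrk1, Id2 and Ms4a4c among them), none passed lower, and 18 were higher in both cultures. The median log2 ratio of the list was 0.44. Of all genes, 0.358% passed higher and 26.6% were higher in both cultures. The list was made with earlier results known, and some members reached 20 CPM in the high cells only. Its counts therefore describe it and give no support to the label. Il2rb, the IL-2 and IL-15 receptor beta chain, held 159 and 125 CPM at 80 pmol and 155 and 117 at 20 pmol, a ratio of 1.30 (1.16 to 1.45). Cd44, the most used memory marker, held 18.7 and 21.1 CPM at 80 pmol and 21.9 and 24.7 at 20 pmol, and the interval of its log2 ratio, -0.60 to 0.23, spanned 0.

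Naive genes were not higher in the negative cells. Of 18 naive and quiescence genes measured none passed in either direction, 8 were higher and 6 lower in both cultures, and the median log2 ratio was 0.01. Of all genes, 26.6% were higher and 30.7% lower in both cultures. The log2 ratios of the naive factors Tcf7, Lef1 and Klf2 were -0.13, -0.06 and -0.23. Il7r, the IL-7 receptor, held 32.5 and 23.5 CPM at 80 pmol and 33.8 and 16.4 at 20 pmol. The cells are therefore called by their transcripts here and not by either state.

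The gene lists drawn up for several programs of activation and growth did not separate the groups. None of the 31 genes of S phase, 31 of the G2 and M phases, 14 of glycolysis, 24 interferon responsive genes, 12 genes linked to Erk, NFAT and receptor signals, 23 ribosome biogenesis genes and 15 survival and death genes measured passed 1.5-fold. Their medians lay between -0.07 and 0.01. Single genes outside these lists did pass, among them the interferon-induced Ifi27, higher in high cells, and the growth kinase gene Mtor, lower. In ribosome biogenesis, 14 of 23 genes were lower in both cultures, by small amounts (median -0.07), where 30.7% of all genes were lower. Of 15 genes responsive to IL-2, IL-15 and STAT5, Gzmb alone passed, and Il2ra, the high-affinity IL-2 receptor chain, held 136 and 152 CPM at 80 pmol and 156 and 177 at 20 pmol. No cytokine receptor of 14 measured passed. Nfatc1, which activation induces, held 30.6 and 39.9 CPM at 80 pmol and 32.0 and 42.2 at 20 pmol.

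Lineage markers were checked against the labelled cell type. Trbc2 was found in 99.2% of high and 99.4% of negative cells, Cd8b1 in 91.2% and 91.5%, and Cd8a in 86.9% and 89.7%. Cd4 had no UMI in either group, which allows up to 0.755% of high cells with one. Cd8a was lower in high cells, with 378 and 465 CPM at 80 pmol and 340 and 403 at 20 pmol (1.21-fold, 1.13 to 1.29), while Cd8b1 was equal (507 and 514, then 481 and 476). Where alpha variable segments were read, Trav14 gave 75 of 90 UMIs (83.3%) in high and 128 of 157 (81.5%) in negative cells. Trbv13 gave 24 of 32 beta variable UMIs (75.0%) in high and 42 of 54 (77.8%) in negative cells. Both groups thus drew mostly on the same alpha and beta families, within the counting intervals.

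Transcripts of the gamma constant genes were found more often in high cells. At equal depth, 6.78% of high cells (4.71 to 9.38) and 3.06% of negative cells (2.20 to 4.14) held a Tcrg-C UMI, and 26.3% and 25.1% held a Trdc UMI. The summed gamma-delta markers, 8 genes of which Sox13 was at 0, stood at 132 CPM in high and 104 in negative cells at 80 pmol and at 135 and 91.4 at 20 pmol, mostly Trdc. Without cells that held a Trdc or Tcrg-C UMI, 29 genes were higher and 26 lower from fewer cells (270 high and 849 negative). NK markers stood at 92.4 and 48.0 CPM at 80 pmol and 101 and 52.6 at 20 pmol, mostly Eomes. Eomes alone held 68.0 and 37.1 CPM, then 63.4 and 42.2, so the rest of the sum was also higher in high cells. The cell with monocyte genes was kept in these sums. The defining Ncr1, Klrb1c, Klra4 and Klra8 of these 8 genes were at 0 in high cells, and 4 of the 8 were at 0 in negative cells too. Cells with 3 or more NK marker UMIs were 5.13% of high and 1.45% of negative cells. NKT and innate-like T cell markers were lower in high cells, with 3.75 and 15.9 CPM at 80 pmol and 4.74 and 13.4 at 20 pmol, and Zbtb16 was at 0 in high cells. Cells with 3 or more of their UMIs were 0.411% of high and 1.22% of negative cells. B cell markers, 8 genes led by Ighm with Ms4a1 at 0, stood at 256 and 287 CPM at 80 pmol and 311 and 295 at 20 pmol. All 5 neutrophil markers were at 0. One high cell at 20 pmol held 231 UMIs of Lyz2, a monocyte and macrophage gene, and 16 of Ly6c2, with none of Cd8a or Trbc2. It held all Lyz2 UMIs of the high cells, and without it the counts stayed at 19 and 9. The contrast was also made without cells with 2 or more UMIs of NK markers other than Eomes (470 high and 1294 negative cells left). A further setting left out cells with 3 or more B cell marker UMIs (360 and 946 left). In neither did the log2 ratio of a called gene reverse. Beyond these settings, the part of the gamma, delta, NK, NKT and B cell transcripts in the ratios above was not tested.

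Levels were followed over bins of Ctla2a plus Ly6c2 UMIs to show what the limit of 4 divides. Some genes moved in steps over the whole range. Cd200 held 53.9 CPM at 0 UMIs, 49.1 at 1, 41.6 at 2, 36.3 at 3, 33.2 at 4, 19.4 at 5 to 7, 12.5 at 8 to 15 and 0 at 16 or more. Cxcr3 held 30.9, 40.6, 46.2 and 45.1 CPM from 0 to 3 UMIs, then 50.4, 60.8, 73.3 and 133. Eomes stood near 42 CPM up to 2 UMIs (39.8, 44.5 and 42.0) and at 64.5 already at 3, just outside the limit, against 73.3 at 4. Cd200 thus fell at each step of the pooled bins, and neither gene had its break at 4.

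Other genes had most of their rise in the top bin. Id2 held 19.96 CPM at 0 and between 17.2 and 21.9 CPM in each bin from 1 to 7 UMIs, then 39.0 at 8 to 15 and 178 at 16 or more. Lgals3 held 42.1 CPM at 0, between 37.8 and 65.8 CPM in each bin from 1 to 7, 79.5 at 8 to 15 and 387 at 16 or more. Ms4a4c was already higher below the top, with 16.9 CPM at 0, 39.0 at 4, 27.8 at 5 to 7, 56.1 at 8 to 15 and 231 at 16 or more. Both L6F cultures showed the rise of these 3 genes, with Id2 at 172 and 184 CPM, Ms4a4c at 262 and 201 and Lgals3 at 343 and 429 in the top bin at 80 and 20 pmol. The top bin rests on 34 cells with 224953 UMIs, where 3 UMIs are 13.3 CPM.

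Without the cells of 16 or more UMIs, 11 genes were still called higher, all among the 19, and 8 lower, 7 of them among the 9. Crtam, Eomes, Ulbp1, Id2, Ifi27, Lgals3 and St3gal6 were among the higher genes that were no longer called, as were Aff3 and Washc4 among the lower. The log2 ratio of Id2 moved from 0.77 to 0.24, that of Lgals3 from 0.95 to 0.43 and that of Ifi27 from 0.84 to 0.49. Those of Eomes (0.72 and 0.68), Crtam (0.62 and 0.61), Ulbp1 (0.92 and 0.76), St3gal6 (1.74 and 1.66), Aff3 (-0.63 and -0.60) and Washc4 (-0.61 and -0.51) moved less, and these lost the call with a ratio nearer to the earlier one. St3gal6 and Ulbp1 held 20.1 and 20.4 CPM in all high cells and fell under the 20 CPM filter once the top cells were left out. The median log2 ratio of the memory-like list was then 0.36 over 20 genes. The differences in Id2 and Lgals3 thus rested on few cells, while those in S100a6, Ms4a4c, Ccl5, Cxcr3, Gzmb, Klrk1 and Slamf7 were also past 1.5-fold in the remaining 452 high cells.

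**Figure D4:**
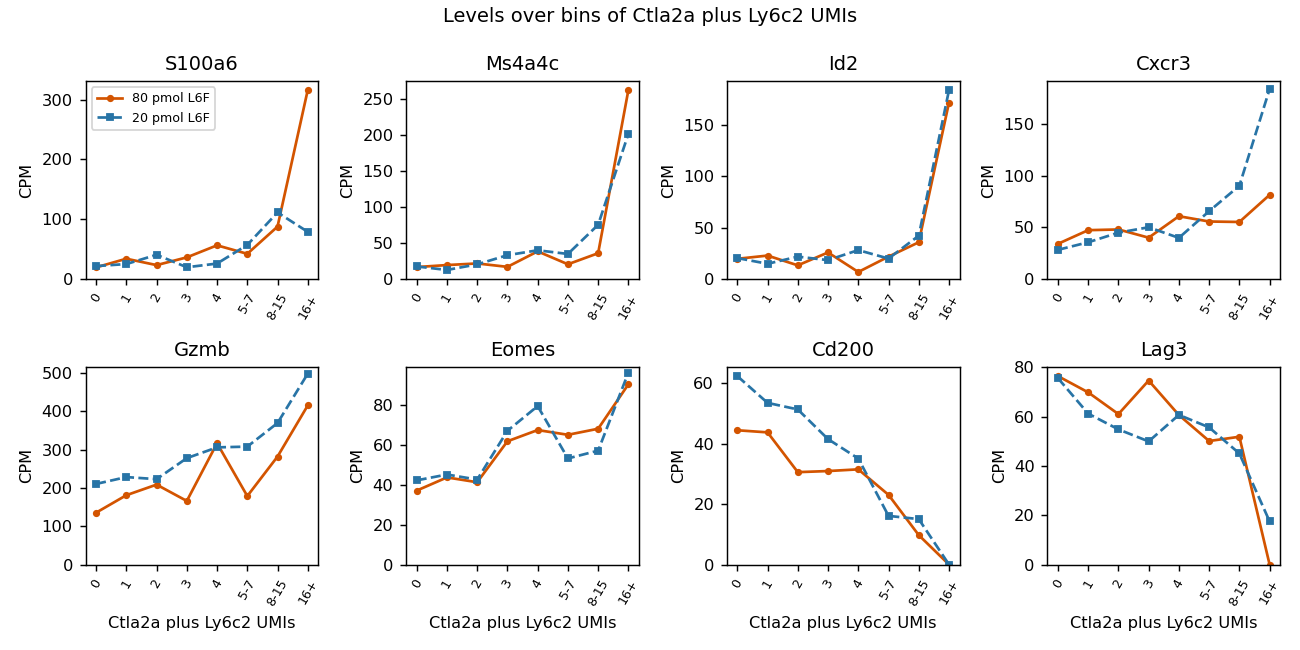
CPM of 8 genes (vertical axes from 0) over bins of Ctla2a plus Ly6c2 UMIs per cell, orange for 80 pmol and blue for 20 pmol L6F. Id2 stays low until the bin of 16 or more (34 cells in both cultures), Cxcr3 and Gzmb rise more gradually, and Cd200 falls from the first bin to 0 in the last.

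The high cells differed among themselves with the transcript they carried. Cells with both transcripts (267) and cells with Ctla2a alone (201) had median UMIs of 6919 and 6776. Ms4a4c held 72.0 CPM in the former and 24.4 in the latter, Lgals3 109 and 34.7, and Id2 48.2 and 16.3. S100a6 held 89.1 and 37.0 CPM, Cxcr3 83.6 and 39.9, and Ccl5 58.1 and 25.1. The counting intervals of these 6 log2 ratios lay above 0. Eomes held 68.7 and 62.1 CPM, Crtam 60.9 and 59.1, Slamf7 48.7 and 44.3, and Lyst 74.2 and 77.6, each with an interval that spanned 0. Cxcr3, S100a6 and Lgals3 were thus higher where Ly6c2 was present too, whereas for Eomes, Crtam and Slamf7 no such difference was detectable at this depth. Cells with both transcripts include those of 16 or more UMIs, all of which held both.

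Cells that the rule did not use allowed the same split to be read again. In L6F cells above 9000 UMIs (206 high and 181 negative), 19 of the 19 higher genes were higher and 6 of the 9 lower genes lower, where 52.3% of genes were higher and 47.7% lower. The sizes were smaller there: 11 of the 19 were 1.5-fold higher or more, with a median log2 ratio of 0.63, and 1 of the 9 was 1.5-fold lower or more, with a median of -0.09. In L6F cells of at least 2000 and fewer than 4000 UMIs, split at 2 or more against 0 (195 and 500 cells), the numbers were 18 of 19 and 7 of 9, where 46.4% of genes were higher and 53.6% lower. Ms4a4c was 2.38-fold higher (1.52 to 3.84) in the deeper cells and 5.81-fold (3.78 to 9.10) in the shallower ones. S100a6 was 2.04-fold (1.40 to 3.03) and 3.82-fold (2.82 to 5.20) higher. The ratios of both genes were larger in the shallower cells, which were split at another limit.

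The same split gave most of the same directions at 0.2 and 20 pmol M9C, while at 2 pmol the lower genes stood near the share of all genes. At 0.2 pmol M9C (54 high and 641 negative cells), 18 of the 19 genes were higher, where 49.6% of all genes were, and 8 of the 9 were lower, where 50.4% were. At 20 pmol M9C (14 high cells) the numbers were 15 of 19 and 6 of 8 with a ratio, where 47.4% and 52.6% of all genes were higher and lower. At 2 pmol M9C (16 high cells) they were 12 of 18 and 4 of 8, where 47.6% and 52.4% were. In each of the 3 cultures at once, 9 of 18 were higher and 4 of 7 lower, where 15.8% and 18.4% of genes were.

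S100a6 held 120 CPM in high and 14.8 in negative cells at 0.2 pmol M9C, 109 and 12.9 at 2 pmol and 159 and 15.7 at 20 pmol. Ms4a4c held 35.5 and 7.64, 72.9 and 6.72, and 109 and 6.38 CPM in the same order. Cd200 held 46.4 and 110, 27.4 and 139, and 49.6 and 155 CPM. S100a6 and Ms4a4c were higher and Cd200 lower in high cells of all 3 M9C cultures, with counting intervals that exclude equality. Ctla2b held 24.6 and 2.15 CPM at 0.2 pmol M9C, 11.4-fold higher (4.02 to 32.5), and had only 3 and 2 UMIs in the high cells at 20 and 2 pmol. Lgals7 had 6 UMIs in high cells at 0.2 pmol (16.4 and 27.5 CPM, an interval of the ratio from 0.214 to 1.34) and none in the other M9C cultures. Id2 held 106 and 11.9 CPM at 0.2 pmol M9C, 8.91-fold higher (5.71 to 13.8), against 1.71-fold in L6F cells. Gzmb held 639 and 170 CPM there, 3.76-fold (3.23 to 4.37), against 1.67-fold. Of the high cells at 0.2 pmol M9C, 18.9% (10 of 53, leaving out 1 cell with macrophage marker UMIs) held 16 or more UMIs, against 7.08% and 6.91% at 80 and 20 pmol L6F. Whether that share accounts for the larger ratios was not tested. The ratios at 0.2 pmol M9C kept the cell with macrophage marker UMIs, whose part in them was not tested either.

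St3gal6 rested on 1 UMI in high cells at 2 pmol M9C. Ccl5 did not follow there, where its 2 UMIs in 16 high cells were 18.2 CPM against 27.9 in negative cells, an interval of 0.0785 to 2.40 for the ratio. Klrk1 likewise rested on 1 UMI. The depth of the small M9C groups, with floors of 29.8 CPM at 20 pmol and 27.4 at 2 pmol for 3 UMIs, does not allow differences in low genes to be seen. Among rested cells of 750 to 4000 UMIs, split at 2 or more against 0 (43 and 904 cells), Ccl5 held 1547 CPM in high and 53.2 in negative cells, Lgals3 647 and 24.5, S100a6 726 and 146 and Id2 205 and 45.8. Eomes held 63.2 and 66.0 CPM there, with an interval of the ratio from 0.253 to 2.58. The rested cells were split at another limit and are shallower, so their values stand beside the others without comparison. Cells with macrophage marker UMIs were not left out of the rested groups.

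**Figure D5:**
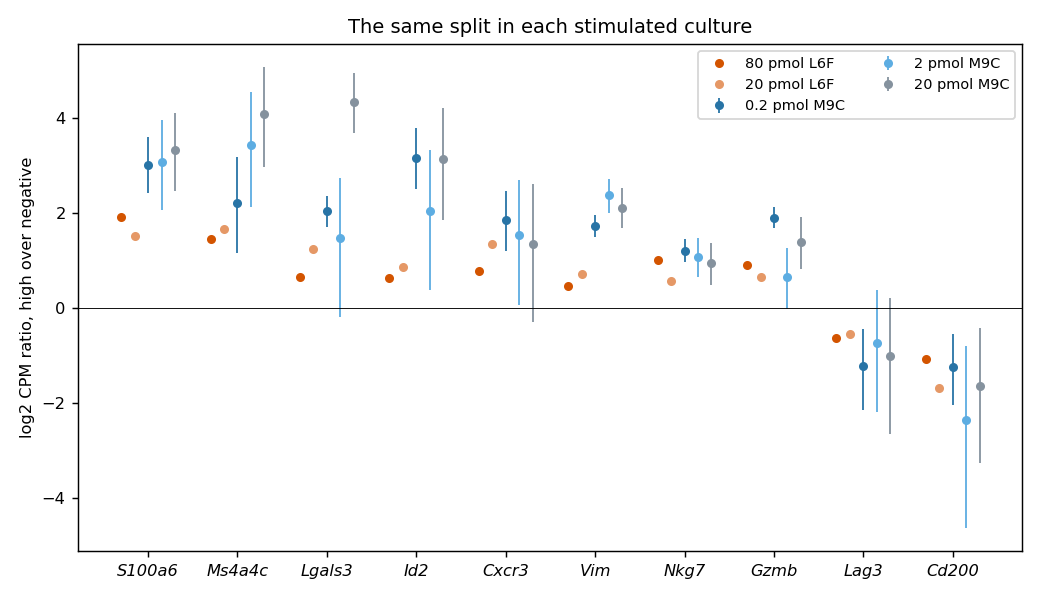
Log2 ratio of CPM in high over negative cells for 10 genes in each stimulated culture. Bars on the M9C points are 95% counting intervals, and the L6F points are drawn without them. S100a6, Ms4a4c, Id2, Vim and Nkg7 lie above 0 and Cd200 below 0 in all 5 cultures.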

How the data were processed

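Spleen CD8+ T cells from 6 hashtagged cultures were read as 1 pooled transcriptome library and 1 hashtag library. The deposited matrix holds UMI counts per gene and hashtag counts per barcode, which the authors made with bcl2fastq and Cell Ranger 6.0.1 with GRCm38 as the genome, as the submitters' processing notes say. Annotation and cell calling were not given in the sources used here. A deposited table ties each hashtag to its culture. Counts were used as deposited, and all 13439 barcodes are distinct.

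The high and negative cells were chosen by raw Ctla2a plus Ly6c2 UMIs, and the members and gene lists were chosen with earlier results of these data known. The 1768 barcodes that failed the hashtag rule, multiplets among them, were left out. Doublets within a culture cannot be seen by hashtag, and no other doublet caller was run. UMIs were summed per group and culture and given as CPM. Ratios have exact Clopper-Pearson 95% intervals, CPM floors are 3 counts, and shares have exact binomial intervals. PCR duplicates are collapsed by UMI, but intervals cover counting error only. With 1 culture per condition and groups chosen by the readout, no test was run and no p-value is given. CPM are compared within a gene, not between genes.

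The named genes were, per direction, the 20 with the largest log2 ratio by the culture nearest to 0 among genes at 50 CPM or more (without mitochondrial, ribosomal protein, antigen receptor and model genes), the 2 leading members of every list at 20 CPM or more in either direction, and a set of lineage and memory genes whatever their values. Results of some single genes that enter the counts are left out of the text. Called genes outside these were also named, after their values were seen. Scripts ran in Python 3.11.15 with numpy 2.4.6, scipy 1.17.1 and Biopython 1.88, and were tested on simulated data. Alternatives covered the level filter, the fold limit, the Ctla2a and Ly6c2 limits, depth, hashtag purity and cells with other lineages' markers. Positions are from GENCODE vM21.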

Additional observations from a re-analysis of the deposited data

How the results depend on the processing

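The 19 higher and 9 lower genes moved with the limits. With a 10 CPM minimum there were 43 and 30, with 50 CPM 8 and 1, with no minimum 177 and 230, at 2-fold 6 and 2, and at 1.5-fold in the summed counts 38 and 20. Thinned to 4000 UMIs there were 28 and 21, with groups set again at 3 or more 32 and 21, and within 5000 to 7000 UMIs 47 and 41. High cells taken at 2 or more UMIs gave 8 and 4, and at 8 or more 109 and 83. Split on Ctla2a alone at 2 or more, 6 were higher and 7 lower, and on Ly6c2 alone 23 and 13, of which 12 and 1 were shared with the main calls. UMIs per cell gave 38 and 6. Without cells with a Trdc or Tcrg-C UMI there were 29 and 26, without cells with B cell marker UMIs 24 and 16, and at 95% hashtag purity 23 and 17. Without the 80 pmol culture 68 and 87 genes passed, and without the 20 pmol culture 85 and 70, where only 1 culture had to pass. Without cells with 16 or more UMIs, a setting added after seeing the data, there were 11 and 8. The cause of these shifts was not tested, beyond fewer cells or genes where the setting leaves fewer.

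At 2 or more UMIs the share of high cells under M9C was 4.41% at 20 pmol, 5.35% at 2 pmol and 15.4% at 0.2 pmol, and under L6F it was 38.4% at 80 pmol and 36.2% at 20 pmol. At 8 or more it was 0.424%, 0.553%, 2.23%, 4.25% and 4.04% in that order. For the 28 called genes, 546 of 616 log2 ratios moved by less than their counting interval, 70 moved by more and none reversed. The median of cytokines and chemokines reversed from 0.20 to -0.088 with thinned cells regrouped and to -0.020 without cells with a Trdc or Tcrg-C UMI, and the cause was not tested. High and negative cells were compared within each culture, and no model was fitted that could hold the culture as a block. Depth limits genes under 20 CPM, which rest on fewer than about 32 UMIs in high cells.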

Other observations

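The 34 L6F cells with 16 or more Ctla2a plus Ly6c2 UMIs were read beyond the named genes, with genes picked after their values were seen, so these are values without a test. Their median was 9 Ctla2a and 12 Ly6c2 UMIs, and all held both transcripts. Klrd1, the CD94 chain of NK receptors, stood at 66.7 CPM against 3.55 in negative cells, with UMIs in 11 of the 34 cells. Cxcr6, a homing receptor of effector and tissue cells, stood at 53.3 against 5.02 CPM, and Ccr2, a receptor for monocyte chemoattractants, at 57.8 against 0.122 CPM. Il7r stood at 97.8 against 19.7 CPM, Nkg7 at 934 against 235 and Vim at 1191 against 345. These 6 genes were between 3.45-fold and 472-fold higher than in negative cells, and Ccr2, at the upper end, rested on 13 UMIs from 9 cells against a near-zero negative level (counting interval 70.9 to 20053).

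Activation and interferon genes went both ways in the same cells. Gzmb stood at 458 against 175 CPM, and the chemokine Xcl1 at 71.1 against 10.9 CPM, from 6 cells. Of interferon-induced genes, Ifi27 stood at 182 against 25.6 CPM, the GTPase Gbp7 at 151 against 55.1 and Trim30a at 133 against 53.3, all higher. Gbp2, a relative of Gbp7, stood at 196 against 558 CPM, 2.85-fold lower (2.12 to 3.93). Icos, a costimulatory receptor, stood at 22.2 against 107 CPM, 4.81-fold lower (2.05 to 14.9), from 5 UMIs. Socs2, a feedback inhibitor of cytokine signals, stood at 13.3 against 130 CPM, from 3 UMIs. Lag3 stood at 8.89 against 76.1 CPM, from 2 UMIs. Il2ra stood at 80.02 against 165 CPM and Ccr7 at 35.6 against 90.0. Cd200 had no UMI in these cells, at least 4.04-fold lower than the 53.9 CPM of negative cells by a floor of 3 UMIs over the group. Cd8a stood at 258 against 432 CPM, while Cd8b1 (418 and 494) and Cd3e (213 and 247) had ratios whose intervals spanned 1.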
